A study of Mus musculus with 8 samples.

Results

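The CC and CXC chemokine ligand genes Ccl2, Ccl3, Ccl4, Ccl6, Ccl7, Ccl9, Cxcl1, Cxcl2, Cxcl3 and Cxcl16 were followed in bone marrow-derived macrophages (BMDMs) of WT and Gsdmd-/- mice. These 10 genes were taken from the count table by their symbols, out of 54532 genes, and 9 of them were among the 12911 genes with enough counts to be tested. Cxcl1 was not, and its counts are given without a fitted fold change. Gsdmd encodes gasdermin D, which forms pores in the plasma membrane of cells that die by pyroptosis.

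RNA was sequenced from 4 WT and 4 Gsdmd-/- libraries of BMDMs that had been differentiated for 6 days and were labelled as untreated. The study's methods describe bone marrow of female C57BL/6J mice aged 6 to 8 weeks and culture with 20 ng/ml M-CSF, the growth factor that drives macrophage differentiation. WT mice were bought from a supplier and Gsdmd-/- mice were a gift of another laboratory. The substrain, sex and age of the Gsdmd-/- donors, and whether every library had its own mouse, are not given in the sources used here, so the p-values measure the spread between these libraries, which may be technical. Total counts lay between 14935114 and 16794810 per library. Gsdmd itself had 75.2 ± 14.1 CPM (library-scaled counts, ± SD) in the 4 WT libraries, against 16.2 ± 1.56 CPM in the 4 Gsdmd-/- libraries (log2 fold change -2.22 ± 0.139 SE, adjusted p = 4.7e-05, edgeR). On the first principal component of all genes tested, which held 43.6% of the variance, WT 2 and WT 3 lay at 45.4 and 38.8, whereas the other 6 libraries lay between -25.9 and -7.19. The members are therefore given with and without them. Of the macrophage markers, all 11 were tested, none passed at an adjusted p under 0.05 or at the study's cutoff (an unadjusted p under 0.05 and a log2 change of 0.5 in size), 8 had a log2 fold change below 0, and the median was -0.09. Lyz2 was the most abundant, with 12982 to 20223 CPM in WT and 16737 to 20731 CPM in Gsdmd-/- libraries. The summed markers of neutrophils stayed at or below 7.93 CPM, mostly S100a8, with Ly6g and Retnlg at 0 in all 8 libraries. Those of stromal cells, led by Pdgfrb, stayed at or below 2.86 CPM and those of lymphoid cells, led by Cd79a, at or below 0.486 CPM. Dendritic cell markers summed to 2225 to 2369 CPM in WT and 1672 to 2096 CPM in Gsdmd-/- libraries, nearly all of it Itgax, which macrophages also express, and all 4 tested markers had a log2 fold change below 0, with none at an adjusted p under 0.05 and 1, Clec9a, lower at the study's cutoff (log2 fold change -0.95, adjusted p = 0.30, and -0.06 without WT 2 and WT 3). Their part in the ligand values was not tested. Siglech, which marks plasmacytoid dendritic cells, was at 0 in all libraries. Mast cell and basophil markers summed to 16.4 to 80.5 CPM in WT and 53.5 to 75.0 CPM in Gsdmd-/- libraries, mostly Kit, with Mcpt4 at 0.

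Chemokines are small secreted proteins that guide leukocytes along a gradient by binding G protein-coupled receptors, and the CC and CXC classes are named after the spacing of their first cysteines. Macrophages are a major source of them. Ccl2 and Ccl7 draw Ccr2-bearing monocytes, Ccl3, Ccl4, Ccl6 and Ccl9 act on other CC receptors, Cxcl1, Cxcl2 and Cxcl3 draw neutrophils through Cxcr2, and Cxcl16 is a membrane-anchored ligand of Cxcr6.

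With all 8 libraries, none of the 9 tested members passed the test between genotypes. At an adjusted p under 0.05 (Benjamini-Hochberg over all genes tested, edgeR's quasi-likelihood test), 0 of the 9 tested members were higher and 0 lower in Gsdmd-/- BMDMs, where 0.139% of all genes tested were higher and 0.209% lower. At the cutoff the study used, an unadjusted p under 0.05 with a log2 fold change of 0.5 or more in size, the members' count was again 0 in each direction, against 1.54% of all genes higher and 3.28% lower. Of the 9 members, 5 had a log2 fold change above 0 and 4 below, with a median of 0.06, beside a median of -0.0069 over all genes tested. Only Ccl6 had an unadjusted p under 0.05, which 12.0% of all genes had. The number at an adjusted p under 0.05 was also 0 with the edgeR exact test, where 0.713% of genes were higher and 1.19% lower, and with DESeq2, where 0.813% were higher and 1.45% lower.

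**Figure D1:**
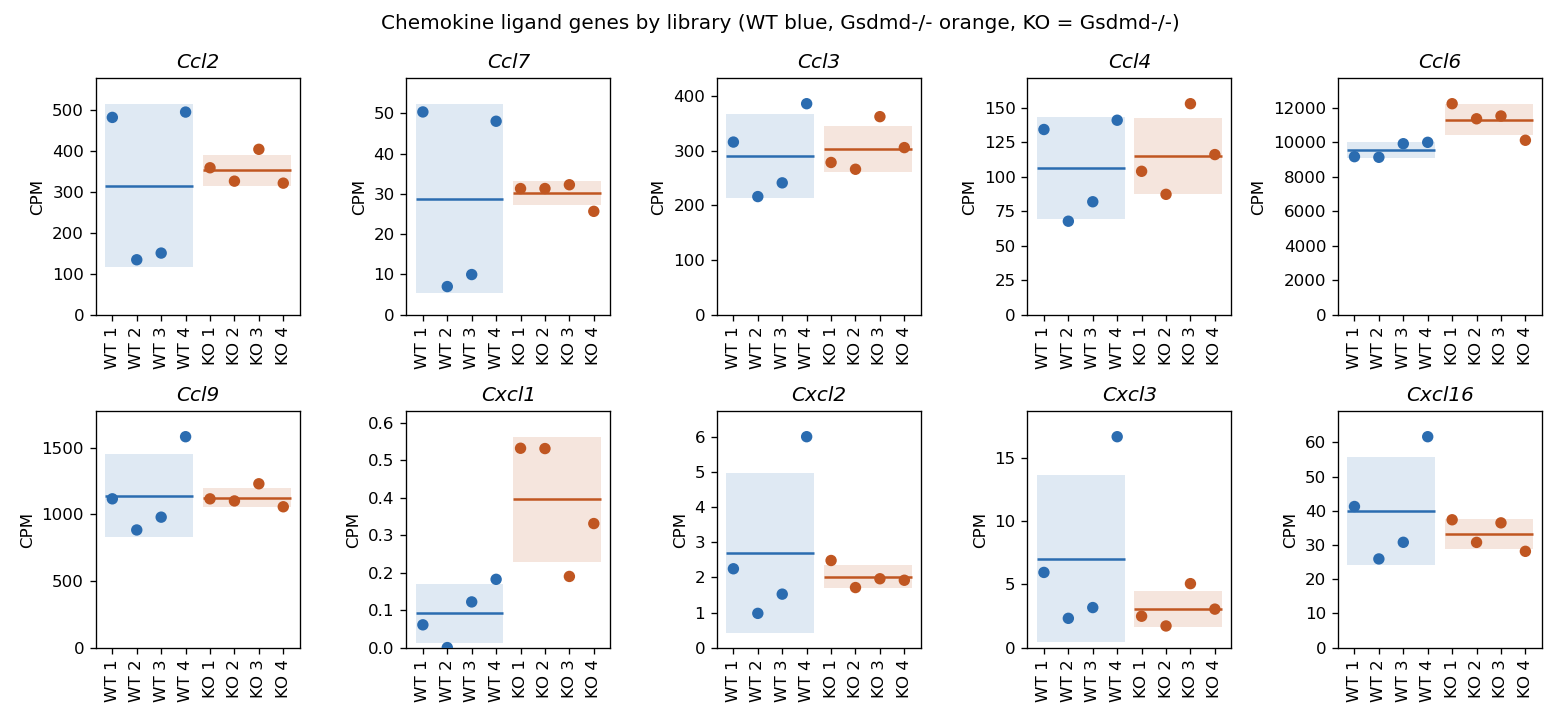
CPM of each chemokine ligand gene (vertical axes, linear and starting at 0) in the 4 WT libraries (blue) and the 4 Gsdmd-/- libraries (orange, labelled KO), with the genotype mean as a line and 1 SD on either side as shading, cut at 0. The Ccl2 and Ccl7 panels show WT 1 and WT 4 above and WT 2 and WT 3 below all 4 Gsdmd-/- libraries, and the Ccl6 panel shows the Gsdmd-/- libraries above the WT libraries.

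Ccl2 (ENSMUSG00000035385) and Ccl7 (ENSMUSG00000035373), the ligands of Ccr2, lie 8.26 kb apart on chromosome 11 (GRCm38, chr11:82035571-82037453 and chr11:82045712-82047525, both on the plus strand). Ccl2 had 482, 134, 150 and 495 CPM in WT 1 to 4 and 359, 326, 404 and 321 CPM in Gsdmd-/- 1 to 4. The WT libraries fell into an upper and a lower pair, and all 4 Gsdmd-/- libraries lay between them. The means were 315 ± 200 CPM in WT and 352 ± 38.1 CPM in Gsdmd-/- BMDMs (SD, n = 4 each), and the log2 fold change was 0.16 ± 0.392 SE (adjusted p = 0.91, 95% interval of the fold 0.611 to 2.04). Ccl7 had 50.3, 6.96, 9.94 and 48.0 CPM in WT and 31.3, 31.3, 32.2 and 25.6 CPM in Gsdmd-/- libraries. It showed the same arrangement, with a 7.23-fold range among WT and a 1.26-fold range among Gsdmd-/- libraries. Its log2 fold change was 0.06 ± 0.533 SE (adjusted p = 0.98), and the 95% interval of the fold was 0.460 to 2.38. All Gsdmd-/- libraries lay between the lower and the upper pair of WT libraries for these 2 of the 9 members and for 6.20% of all genes tested.

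With WT 2 and WT 3 left out, a setting chosen after seeing the data, Ccl7 was lower in Gsdmd-/- BMDMs (log2 fold change -0.71 ± 0.113 SE, adjusted p = 0.020). Ccl2 then had a log2 fold change of -0.47 ± 0.108 SE and did not pass (adjusted p = 0.084). In that fit 0.813% of 13288 genes were lower at an adjusted p under 0.05 and Ccl7 was the 1 member among them. Leaving out 1 library was enough to turn the direction, with log2 fold changes of -0.10 for Ccl2 and -0.26 for Ccl7 without WT 2 and of -0.07 and -0.22 without WT 3.

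Of 7 tested markers of monocytes, 6 were lower in both WT 2 and WT 3 than in WT 1 and WT 4, as Ccl2 and Ccl7 were. The same order was present in 28.7% of all genes tested, in 8 of 9 members, in 8 of 11 macrophage markers and in 3 of 3 tested mast cell and basophil markers. With WT 2 and WT 3 left out, 1 of the 11 macrophage markers, the Fc receptor Fcgr1, was lower (log2 fold change -0.85, adjusted p = 0.032). The macrophage markers summed to 22629, 16728, 18621 and 24749 CPM in WT 1 to 4. The 8 listed monocyte markers, of which Chil3 was the most abundant, summed to 233, 82.3, 85.8 and 292 CPM in WT 1 to 4 and to between 118 and 160 CPM in Gsdmd-/- libraries. With all libraries none of the 7 passed, and 6 had a log2 fold change below 0 and 1 above. Without WT 2 and WT 3, Ccr2 (log2 fold change -1.70, adjusted p = 0.0036) and Ly6c2 (-0.77, adjusted p = 0.049) were lower in Gsdmd-/- BMDMs, and 5 of the 7 were lower at the study's cutoff. In that fit 0.813% of all genes were lower at an adjusted p under 0.05 and 3.15% at the cutoff. Chil3, a secreted chitinase-like protein, had 82.5, 57.7, 65.6 and 133 CPM in WT and 61.2 to 79.98 CPM in Gsdmd-/- libraries. Ly6c2, a surface antigen of inflammatory monocytes, had 35.4, 1.53, 0.427 and 30.3 CPM in WT and 15.4 to 22.9 CPM in Gsdmd-/- libraries. Ccr2, the receptor of both ligands, had 10.8, 2.32, 2.62 and 13.4 CPM in WT and 2.89 to 4.31 CPM in Gsdmd-/- libraries. Ly6c2 and Ccr2 are shown because of their values. Plac8, also on that list, was at or near 0 in every library. The part of these cells in the ligand values was not tested, and in bulk RNA fewer cells of a type and less RNA per cell cannot be told apart.

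Ccl3 (ENSMUSG00000000982, chr11:83647844-83649355, minus strand) and Ccl4 (ENSMUSG00000018930, chr11:83662584-83664683, plus strand) are macrophage inflammatory proteins, and they sit 13.2 kb apart. Ccl3 had 316, 216, 241 and 386 CPM in WT and 278, 266, 362 and 306 CPM in Gsdmd-/- libraries. Ccl4 had 134, 67.7, 81.9 and 141 CPM in WT and 104, 87.2, 153 and 116 CPM in Gsdmd-/- libraries. For each gene WT 2 was lowest and WT 3 next, and the genotypes overlapped. The log2 fold changes were 0.07 ± 0.177 SE for Ccl3 (adjusted p = 0.92, 95% interval of the fold 0.797 to 1.37) and 0.12 ± 0.246 SE for Ccl4 (adjusted p = 0.89, 0.742 to 1.58). Without WT 2 and WT 3 they were -0.21 and -0.26.

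Ccl6 (ENSMUSG00000018927, chr11:83587882-83593087, minus strand) and Ccl9 (ENSMUSG00000019122, chr11:83572919-83578636, minus strand) are rodent CC ligands that act on Ccr1 and are neighbours, 9.25 kb apart. Ccl6 had 9163, 9126, 9915 and 9995 CPM in WT and 12236, 11361, 11524 and 10115 CPM in Gsdmd-/- libraries. Every Gsdmd-/- library lay above every WT library, though the lowest of the former exceeded the highest of the latter by little. Such a separation in the higher direction was present in 3.48% of all genes tested and in 1 of the 9 members, and in the lower direction in 4.11% of genes and 0 members. The means were 9550 ± 469 and 11309 ± 882 CPM (SD, n = 4 each), and the fold was 1.18 (95% interval 1.03 to 1.37). Its log2 fold change of 0.24 ± 0.0930 SE did not pass the adjustment over all genes (p = 0.025, adjusted p = 0.34, edgeR), and an exact two-sided permutation test of the 4 against 4 libraries gave p = 0.0286, the smallest it can give. The direction was the same in all 17 alternative settings, but in 6 of them the unadjusted p was over 0.05, from 0.0501 to 0.083. Without WT 2 and WT 3 the log2 fold change was 0.24. Ccl9 had 1117, 883, 979 and 1583 CPM in WT and 1117, 1101, 1230 and 1057 CPM in Gsdmd-/- libraries. WT 4 was the highest and WT 2 the lowest library, and the log2 fold change was -0.02 ± 0.164 SE (adjusted p = 0.98, 95% interval of the fold 0.767 to 1.27), or -0.26 without WT 2 and WT 3.

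Cxcl1 (ENSMUSG00000029380, chr5:90891241-90893115), Cxcl2 (ENSMUSG00000058427, chr5:90903871-90905938) and Cxcl3 (ENSMUSG00000029379, chr5:90786103-90789600) are the neutrophil attractants of the group and lie together on the plus strand of chromosome 5. All of them had few reads. Cxcl1 had 1, 0, 2 and 3 reads in WT and 9, 9, 3 and 5 reads in Gsdmd-/- libraries. The highest WT and the lowest Gsdmd-/- library had the same number of reads, 3. The 6 and 26 reads in all gave a ratio of 4.40 with a 95% counting interval of 1.77 to 13.1, which covers counting error only. The exact two-sided permutation test of mean CPM gave p = 0.0286, the smallest possible. That p rests on library scaling, which set the tied WT 4 and Gsdmd-/- 3 apart at 0.182 and 0.190 CPM. The reads alone did not separate the genotypes completely. A count of 3, the most that a count of 0 allows, was 0.177 to 0.199 CPM, and the WT libraries were at or below it. Without a filter on low counts, Cxcl1 passed the study's cutoff as higher (adjusted p = 0.39, edgeR), as did 1.66% of 25339 genes, and Cxcl3 as lower, as did 3.09%.

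Cxcl2 had 37, 16, 25 and 99 reads in WT and 42, 29, 31 and 29 reads in Gsdmd-/- libraries, which is 2.25, 0.976, 1.52 and 6.02 CPM and 2.48, 1.71, 1.96 and 1.92 CPM. WT 4 stood above all other libraries. The log2 fold change was -0.41 ± 0.483 SE (adjusted p = 0.78), and without WT 4 it was 0.35. Cxcl3 had 5.96, 2.32, 3.17 and 16.7 CPM in WT and 2.48, 1.71, 5.07 and 3.05 CPM in Gsdmd-/- libraries, from 29 to 275 reads. It had the largest absolute fold change of the 9 members, -1.20 ± 0.583 SE on the log2 scale, and did not pass (adjusted p = 0.46, 95% interval of the fold 0.178 to 1.07). Without WT 4 its log2 fold change was -0.31, and without WT 2 and WT 3 it was -1.88 (adjusted p = 0.083). The edgeR exact test placed Cxcl3 past the study's cutoff (log2 fold change -1.19, adjusted p = 0.41). With that test 454 of 12911 genes were lower at the cutoff.

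Cxcl16 (ENSMUSG00000018920, chr11:70453983-70459984, minus strand) lies far from the other members of chromosome 11. It had 41.3, 25.9, 30.8 and 61.7 CPM in WT and 37.4, 30.8, 36.5 and 28.2 CPM in Gsdmd-/- libraries. The genotypes overlapped, with WT 4 again the highest library, and the log2 fold change was -0.27 ± 0.237 SE (adjusted p = 0.71, 95% interval of the fold 0.578 to 1.20). Leaving out WT 4 turned it to 0.026, and leaving out WT 2 gave -0.43.

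**Figure D2:**
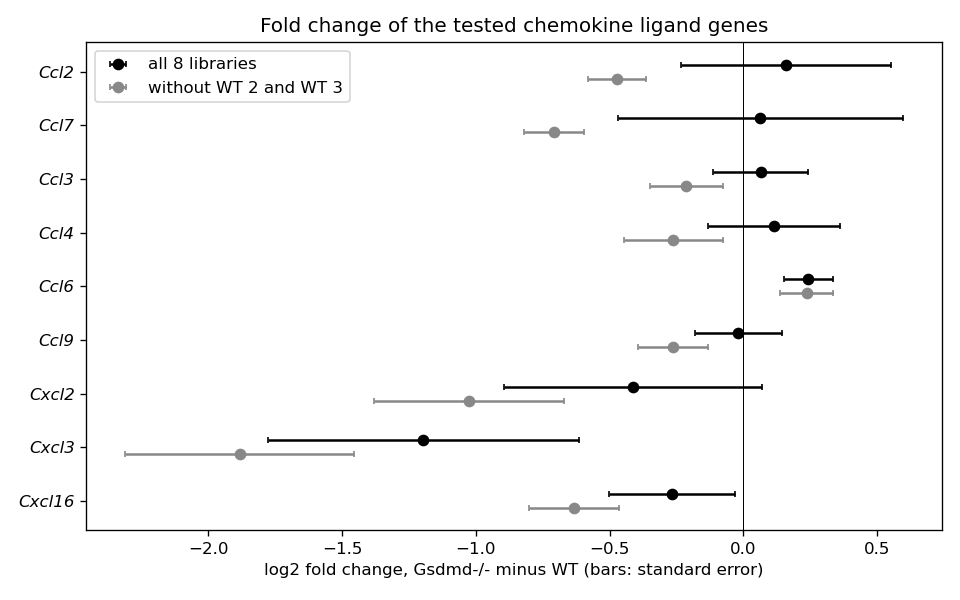
Log2 fold change of Gsdmd-/- against WT (horizontal axis) for the 9 tested members, with bars of 1 standard error, in all 8 libraries (black) and without WT 2 and WT 3 (grey). With all libraries the values run from -1.20 for Cxcl3 to 0.24 for Ccl6, and without WT 2 and WT 3 only Ccl6 stays above 0.

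Without WT 2 and WT 3, Ccl7, Cxcl2, Cxcl3 and Cxcl16 passed the study's cutoff as lower in Gsdmd-/- BMDMs, where 3.15% of 13288 genes did. The log2 fold changes of Cxcl2 and Cxcl16 in that fit were -1.03 and -0.63, with adjusted p-values of 0.24 and 0.13 (edgeR). These values rest on the upper pair of WT libraries, WT 1 and WT 4.

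The members varied more among WT than among Gsdmd-/- libraries. The coefficient of variation in WT ran from 4.91% for Ccl6 to 94.2% for Cxcl3, and exceeded that in Gsdmd-/- libraries for 8 of the 9 tested members, with Ccl6 as the exception. It did so for 71.8% of all genes tested, so the direction alone was common. The median coefficient over all genes was 16.5% in WT and 11.0% in Gsdmd-/- libraries. Larger values in WT than that of Ccl7, 81.8%, were present in 0.945% of genes, than that of Cxcl2, 84.6%, in 0.767%, and than that of Cxcl3, in 0.403%. WT 2 and WT 3 were the lowest pair of libraries for Ccl2, Ccl3, Ccl4, Ccl7, Ccl9 and Cxcl2, which is 6 of the 9 members, and for 17.5% of all genes tested. WT 4 was the highest library for Ccl2, Ccl3, Ccl9, Cxcl2, Cxcl3 and Cxcl16, again 6 of 9, and for 19.5% of all genes tested. These counts describe the members side by side, and the members share their libraries.

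**Figure D3:**
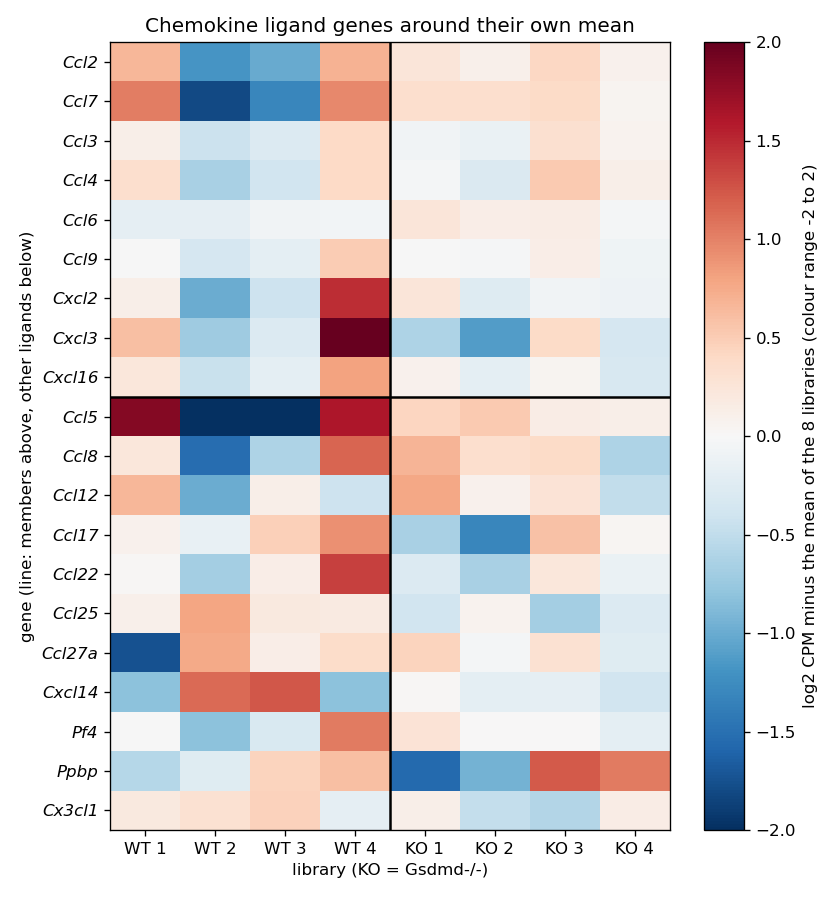
Log2 CPM of the 9 tested members (above the line) and the 11 tested other chemokine ligands (below it) in each library, each gene set around its own mean over the 8 libraries, with red above and blue below the mean. WT 2 and WT 3 are blue for all members shown, WT 4 is red for every member shown other than Ccl6, and Ccl5 has the widest range of the other ligands.

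Levels between genes were compared as CPM per kb of merged exons. Ccl6 was by far the highest, at 5320 ± 261 CPM per kb in WT and 6300 ± 491 CPM per kb in Gsdmd-/- BMDMs (SD, n = 4 each), and only 3 tested genes were higher over the 8 libraries. Of all reads counted for the members, Ccl6 held between 78.5% and 87.2% in each library, and the members together made up 1.05% to 1.42% of a library. Ccl3, Ccl9, Ccl2 and Ccl4 followed, then Ccl7, Cxcl16, Cxcl3, Cxcl2 and Cxcl1. The ranges over the 8 libraries overlapped between Ccl3 and Ccl9, Ccl9 and Ccl2, Ccl2 and Ccl4, Ccl7 and Cxcl16, and Cxcl3 and Cxcl2, yet within single libraries Ccl2 exceeded Ccl4 and Ccl7 exceeded Cxcl16 in 8 of 8, Ccl9 exceeded Ccl2 in 7, Cxcl3 exceeded Cxcl2 in 5 and Ccl3 exceeded Ccl9 in 3. The ranges did not overlap between Ccl6 and Ccl3, Ccl4 and Ccl7, Cxcl16 and Cxcl3, or Cxcl2 and Cxcl1. With the length of the main transcript in place of merged exons, Ccl2 moved from rank 4 to rank 2, Cxcl3 from 1.45 to 4.98 CPM per kb, Cxcl2 from 1.14 to 2.12 CPM per kb and Cxcl1 from 0.130 to 0.256 CPM per kb, and the ranges of Cxcl16 and Cxcl3 then overlapped. On that scale Cxcl3 exceeded Cxcl2 in 8 of 8 libraries and Ccl7 exceeded Cxcl16 in 7.

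**Figure D4:**
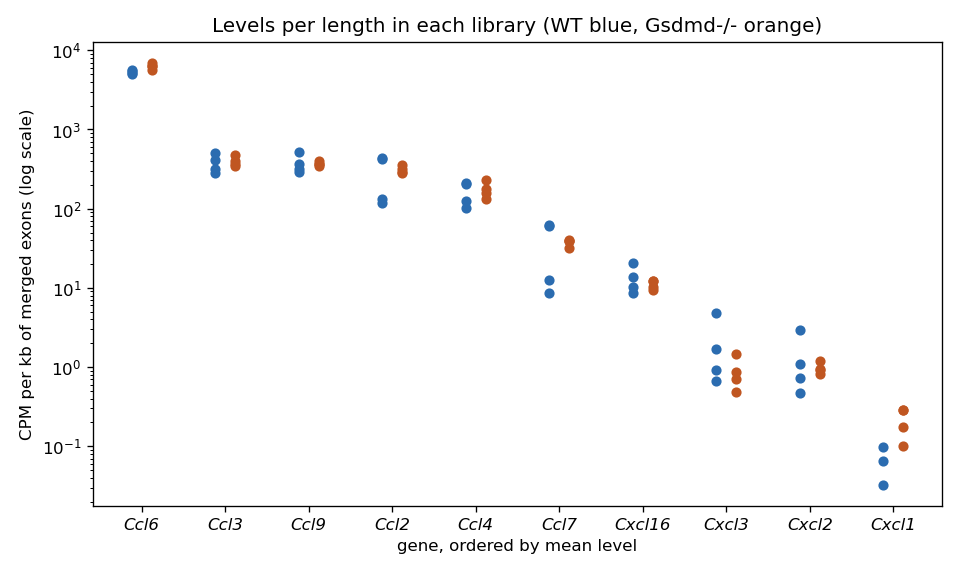
CPM per kb of merged exons (vertical axis, log scale) of the 10 members in order of their mean level, with 1 point for each WT (blue) and Gsdmd-/- (orange) library. Ccl6 lies above 5084 CPM per kb in every library and the 3 neutrophil attractants lie lowest; the WT library with 0 Cxcl1 reads is not drawn.

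The genes closest to a member were those with the smallest root mean square difference of centred log2 CPM over the 8 libraries, and these distances are descriptions without a test. Ly6e, a member of the Ly6 family, was closest to Ccl2 (0.0692 on the log2 scale), with 1019, 315, 344 and 1179 CPM in WT and 734 to 905 CPM in Gsdmd-/- libraries, and Lsp1 and Ear6 came next. For Ccl7 they were Slc39a4, Tagap and Tnfsf14 (0.187 to 0.224). Acod1, which makes itaconate, was closest to Cxcl3 (0.236), with 33.2, 15.3, 26.5 and 86.5 CPM in WT and 13.1 to 25.5 CPM in Gsdmd-/- libraries, followed by Mt3 and Pilra. Pf4, itself a CXC chemokine, was closest to Cxcl2 (0.209), followed by Arl5c and Isg15, and Bst2, Lpcat2 and Scimp were closest to Cxcl16 (0.0767 to 0.100). The list was Pop4, Cmtm7 and Dpysl2 for Ccl3, Dck, Rpl23a and Milr1 for Ccl4, Aida, Atp6v1c1 and Txnip for Ccl6, and Mrps7, Exosc3 and Fbl for Ccl9, at distances of 0.0463 to 0.132. No member was among the 3 closest genes of another.

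Promoter sequences show how the neutrophil attractants resemble each other where the transcription factor NF-kB is known to act. RefSeq promoters of GRCm38.p6, from 250 bases before to 50 bases after the start, were matched for 6 of the 10 members. They were not matched for Ccl2, Ccl4, Ccl7 and Cxcl16. The letters GGG, any 2 bases and TTTCC, a form of the kappa B motif, were searched on both strands and found in 4 of the 6, Cxcl1, Cxcl2, Cxcl3 and Ccl9, and in 1.63% of 32851 promoters. The form with TTCCC at its end was in 0 of the 6 and in 1.75% of promoters. An AP-1 motif, TGANTCA, was found in Ccl9 and in 7.81% of promoters, and TATAAA in Ccl9 and Cxcl3 and in 13.6%. Of the window, 150 bases are shown, 5′ to 3′ on the strand of the gene, for the 4 genes with a match and for Ccl6, the most abundant member. Capitals mark the kappa B, AP-1 and TATAAA matches.
Cxcl1, chr5:90891095-90891244, plus strand: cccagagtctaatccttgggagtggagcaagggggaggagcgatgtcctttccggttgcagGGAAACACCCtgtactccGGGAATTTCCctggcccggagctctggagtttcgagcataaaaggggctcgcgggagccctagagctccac
Cxcl2, chr5:90903749-90903898, plus strand: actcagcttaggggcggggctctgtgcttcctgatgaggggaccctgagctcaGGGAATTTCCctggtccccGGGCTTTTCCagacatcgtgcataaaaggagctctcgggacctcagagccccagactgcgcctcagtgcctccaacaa
Cxcl3, chr5:90785951-90786100, plus strand: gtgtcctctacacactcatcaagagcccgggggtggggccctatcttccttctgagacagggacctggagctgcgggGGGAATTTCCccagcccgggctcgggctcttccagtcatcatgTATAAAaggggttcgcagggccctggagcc
Ccl9, chr11:83578637-83578786, minus strand: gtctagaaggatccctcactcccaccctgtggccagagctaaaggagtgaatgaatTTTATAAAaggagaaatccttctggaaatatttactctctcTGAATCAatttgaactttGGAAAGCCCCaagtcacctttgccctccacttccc
Ccl6, chr11:83593088-83593237, minus strand: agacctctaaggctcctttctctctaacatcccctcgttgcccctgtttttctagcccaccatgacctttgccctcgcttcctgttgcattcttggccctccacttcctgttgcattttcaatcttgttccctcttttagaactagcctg
The same letters, GGGAATTTCC, were in Cxcl1, Cxcl2 and Cxcl3, starting 71, 97 and 73 bases before the start used for the RefSeq promoters. That start differs from the GENCODE gene start given above. The bases shown for Cxcl2 end at 90903898, past its GENCODE start at 90903871. These distances are therefore not compared between the genes. These matches are descriptions of sequence, and the libraries hold no measure of binding.

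The coding sequences of Cxcl2 and Cxcl3 were 89.7% identical, those of Cxcl1 and Cxcl2 76.0%, of Ccl3 and Ccl4 69.8% and of Ccl6 and Ccl9 66.7%. Of all stretches of 50 bases in the main transcripts, 61 were shared between Cxcl2 and Cxcl3, which is 5.75% of those in Cxcl2 and 6.31% of those in Cxcl3, so the counts of this pair are uncertain where the authors' counting could split reads. In Ccl9, 2.0% of such stretches occurred in other genes. The strand used in counting is not given in the sources used here, and reads of an overlapping antisense gene could then not be told apart. Such a gene was annotated at Ccl6 with 90 to 156 counts per library, at Cxcl16 with 8 to 16 counts, and at Ccl2 with 0.

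The element TATTTAT, an AU-rich sequence through which decay factors such as Zfp36 shorten the life of cytokine mRNAs, was present in the 3′ UTR of Ccl3, Ccl4, Cxcl1, Cxcl2 and Cxcl3. That is 5 of the 10 members, against 27.0% of 11358 tested genes with an annotated 3′ UTR. Cxcl1 held 6 copies, Cxcl2 held 7, Cxcl3 held 2 and Ccl3 and Ccl4 held 1 each. A window of 30 bases around 1 copy is shown for each, with that copy in capitals. Further copies within the windows of Cxcl1 and Cxcl2 are in lower case.
Ccl3: gtatttgtgacTATTTATtctgaaagactt
Ccl4: attatttctatTATTTATgttttagttata
Cxcl1: tttgagggtccTATTTATttatgtatttat
Cxcl2: gagagttcactTATTTATttatctatgtat
Cxcl3: ttatcagttgtTATTTATtgaaatggtctt
Zfp36, which encodes the decay factor tristetraprolin, was higher in Gsdmd-/- BMDMs, with 90.6 to 108 CPM in WT and 183 to 207 CPM in Gsdmd-/- libraries (log2 fold change 0.97 ± 0.0854 SE, adjusted p = 8.2e-04, edgeR). It was the 1 of 9 tested decay factors that passed either rule. The fitted fold changes of the 4 tested members with the element were -1.20, -0.41, 0.07 and 0.12 on the log2 scale for Cxcl3, Cxcl2, Ccl3 and Ccl4, and none passed.

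Among 28 other chemokine ligands, 11 were tested and 0 passed at an adjusted p under 0.05. At the study's cutoff, 1 was lower, Ccl25, a ligand of Ccr9, with 3.04, 4.94, 3.23 and 3.22 CPM in WT and 1.71 to 2.95 CPM in Gsdmd-/- libraries (log2 fold change -0.66 ± 0.239 SE, adjusted p = 0.32). The most abundant were Ccl17 with 77.9 to 162 CPM in WT and 34.9 to 129 CPM in Gsdmd-/- libraries, Pf4 with 7.69 to 28.0 and 11.9 to 16.6 CPM, and Ccl22 with 5.61 to 23.5 and 5.73 to 10.6 CPM. These ranges overlapped. Their log2 fold changes were -0.56, -0.11 and -0.59, with adjusted p-values of 0.59, 0.93 and 0.59 (edgeR). The median over the 11 was -0.39. Ccl5, which draws T cells, was lower without WT 2 and WT 3 (log2 fold change -1.44, adjusted p = 0.0054), and 3 of the 11 were lower at the study's cutoff, beside 3.15% of all genes in that fit.

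Of 18 chemokine receptors, 7 were tested and none passed either rule. Ccr1, a receptor of Ccl3, Ccl6 and Ccl9, was the most abundant, with 266 to 381 CPM in WT and 332 to 389 CPM in Gsdmd-/- libraries (log2 fold change 0.15 ± 0.128 SE, adjusted p = 0.69). Cxcr4, the receptor of Cxcl12, had 23.9 to 32.6 CPM in WT and 26.9 to 29.4 CPM in Gsdmd-/- libraries (log2 fold change 0.04, adjusted p = 0.90). In the list of atypical receptors, proteases and binders of ligands, 2 of 10 tested genes were higher at the study's cutoff. Mmp9, a gelatinase, had 0.244 to 0.790 CPM in WT and 0.824 to 1.52 CPM in Gsdmd-/- libraries (log2 fold change 1.21, adjusted p = 0.26). Sdc1, a heparan sulfate proteoglycan, had 56.0, 107, 112 and 55.9 CPM in WT and 108 to 131 CPM in Gsdmd-/- libraries (log2 fold change 0.54, adjusted p = 0.39). WT 2 and WT 3 lay near the Gsdmd-/- libraries for Sdc1, and without them it was higher (adjusted p = 0.0036). In that fit Mmp14, of the same list, was lower at the study's cutoff (log2 fold change -0.62, adjusted p = 0.084, edgeR), beside 3.15% of all genes.

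Upstream of the ligands, 13 of 17 inducing cytokines and pattern receptors were tested. Tlr2, which senses bacterial lipoproteins, was the 1 gene at the study's cutoff and was lower, with 62.1 to 100.04 CPM in WT and 45.4 to 64.6 CPM in Gsdmd-/- libraries (log2 fold change -0.54 ± 0.162 SE, adjusted p = 0.24). With WT 2 and WT 3 left out, Tlr2, Il1b and Myd88 were lower at that cutoff, with log2 fold changes of -0.70, -1.19 and -0.55 and adjusted p-values of 0.10 to 0.31. Of the 24 genes of NF-kB and AP-1 control, 23 were tested, 4 were higher and 6 lower at the study's cutoff, and 2 were higher and 1 lower at an adjusted p under 0.05. Fos, an AP-1 subunit, was higher, with 42.8 to 60.1 CPM in WT and 98.4 to 134 CPM in Gsdmd-/- libraries (log2 fold change 1.13 ± 0.133 SE, adjusted p = 0.0059). Egr1, an immediate-early factor, was higher, with 2.38 to 8.996 and 38.5 to 76.9 CPM (log2 fold change 3.59 ± 0.424 SE, adjusted p = 0.0059). Irf1, a factor of the interferon response, was lower, with 31.7 to 44.7 and 21.0 to 26.6 CPM (log2 fold change -0.77 ± 0.133 SE, adjusted p = 0.047), and it lost that call in 10 of 17 alternative settings. The AP-1 subunit Junb and Nfkbiz were higher at the study's cutoff, with log2 fold changes of 0.53 and 0.87. Jun, Atf3 and Fosl1, also of the AP-1 group, and the NF-kB inhibitors Nfkbie and Tnfaip3 were lower at that cutoff, with log2 fold changes of -0.58, -0.54, -0.65, -0.66 and -0.55. The adjusted p-values of these 7 genes lay between 0.075 and 0.40. Tnfaip3 had 76.0, 42.6, 41.1 and 75.1 CPM in WT and 39.2 to 40.9 CPM in Gsdmd-/- libraries. Without WT 2 and WT 3, Tnfaip3 (log2 fold change -0.92, adjusted p = 0.0018) and Nfkbie (-0.99, adjusted p = 0.038) were lower, whereas Irf1 (-0.70, adjusted p = 0.070) was lower at the study's cutoff alone. Relb (-0.65, adjusted p = 0.16) and Nfkbia (-0.57, adjusted p = 0.17) were also lower at that cutoff alone (edgeR). Of the 23 genes, 6 were then lower and 2 higher at the cutoff, beside 3.15% and 3.05% of all genes in that fit. Fosb, not among the 23, was also higher at it (3.42, adjusted p = 0.32). The list held members of AP-1 in both directions, and its median with all 8 libraries was -0.08.

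Of 17 genes of G protein signalling after receptors, all were tested and 0 passed at an adjusted p under 0.05. Rgs1, which shortens signals of chemokine receptors, was higher at the study's cutoff, with 105 to 188 CPM in WT and 183 to 269 CPM in Gsdmd-/- libraries (log2 fold change 0.72 ± 0.201 SE, adjusted p = 0.21). Plcb3, a phospholipase C, was lower at that cutoff, with 31.2 to 45.7 and 24.8 to 29.4 CPM (log2 fold change -0.50 ± 0.140 SE, adjusted p = 0.21). Of the 17 genes of the 7 lists at the study's cutoff, 9 kept that call without WT 2 and WT 3, and Ccl25, Mmp9, Nfkbiz, Jun, Junb, Atf3, Plcb3 and Rgs1 lost it. Over the 7 lists, the medians of the log2 fold change lay between -0.39 and 0.16.

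**Figure D5:**
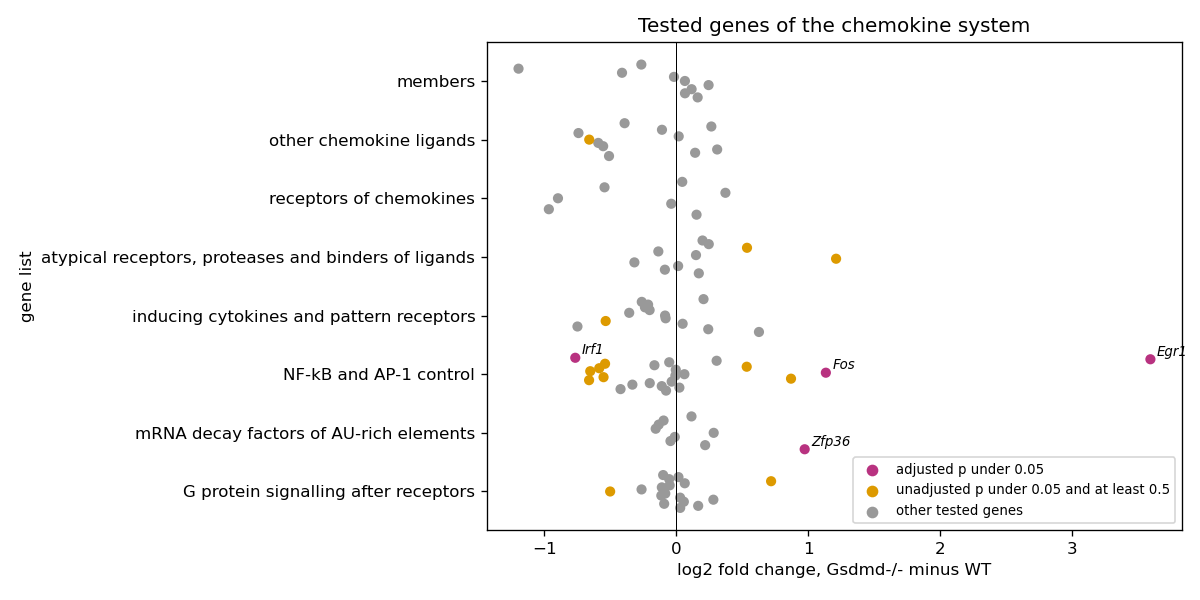
Log2 fold change of Gsdmd-/- against WT (horizontal axis) for the tested genes of the members and of 7 lists of the chemokine system (vertical axis, points spread for sight), with colours for an adjusted p under 0.05, for the study's cutoff and for the other genes. Egr1, Fos, Zfp36 and Irf1 are the genes at an adjusted p under 0.05, and all points of the members are grey.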

How the data were processed

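Total RNA of 8 BMDM libraries, 4 WT and 4 Gsdmd-/-, was made into TruSeq libraries and sequenced. The authors deposited read counts per gene, not normalized and not pooled, on mm10 per the submitters' processing notes. The aligner, counting tool and annotation are not given in the sources used here. In R 4.3.3, filterByExpr of edgeR 4.0.16 kept 12911 genes, TMM factors scaled the libraries, and genotypes were compared by the two-sided quasi-likelihood test with genotype as the only term. CPM rest on the TMM factors, and a prior count of 2 was added for log2 CPM. Standard errors are the absolute log2 fold change divided by the square root of F. Positions and lengths came from GENCODE M21 (GRCm38), which held 54495 of 54532 genes. Intervals and the limit of 3 counts cover counting error only where said so. The scripts were tested on simulated data.

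The members and lists were chosen with earlier results of these data known. Named genes were all members, Gsdmd, each gene of the 7 lists past either rule, the 3 most abundant other ligands and receptors (1 of these is not reported here), the most abundant marker of each list, and the 3 genes closest to each tested member. Ccr2, Ly6c2, Plac8, Fcgr1, Clec9a, Cdh5, Ccl5, Il1b, Myd88, Relb, Nfkbia, Fosb, Mmp14 and the markers at 0 were named after their values were seen. Alternatives were the edgeR exact test, voom in limma 3.58.1, DESeq2 1.42.0, RLE and upper quartile scaling, dropping the filter, a minimum of 10 counts in each library, a replicate block, leaving out each library, and a cutoff of 1 on the size of the log2 fold change. Protein sequences were not used here.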

Additional observations from a re-analysis of the deposited data

Results flagged for a closer look

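In 33 named genes, 66 groups of 4 libraries were checked for a library far from the other three of its genotype, and 2 were found, where chance gives about 1 in 20. Ccl7 had 25.64 CPM in Gsdmd-/- 4, below the 31.3 CPM of the next library, in a group whose other values lay close together. Ccl25 had 4.94 CPM in WT 2, above the 3.23 CPM of the next WT library.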

How the results depend on the processing

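With the edgeR exact test, 92 genes were higher and 154 lower at an adjusted p under 0.05, and 5 genes of the 7 lists were higher and 4 lower. At the study's cutoff that test had 211 genes higher and 454 lower of 12911, with 1 member, Cxcl3, among the lower. With DESeq2 the counts at an adjusted p under 0.05 were 105 and 187 genes and 5 and 5 list genes. With voom or upper quartile scaling 0 list genes were lower at an adjusted p under 0.05. Without a filter on low counts, 44 genes were higher and 65 lower at an adjusted p under 0.05, 421 and 783 at the study's cutoff, 5 list genes were higher, and 1 member, Cxcl1, was higher and 1, Cxcl3, lower at the cutoff. With the fold cutoff raised to 1 on the log2 scale, it took in 59 higher and 140 lower genes. In the main comparison they were 18 and 27 at an adjusted p under 0.05 and 199 and 424 at the cutoff. The log2 fold change of Ccl9, -0.02, became 0.016 with voom, 0.00068 without the filter and 0.018 with the replicate block.

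Whether the replicate numbers pair the samples is not given in the sources used here. Same-numbered libraries deviated from their group means with correlations of -0.20 to 0.18, and differently numbered ones with -0.25 to 0.33. Correlations of so few libraries cannot settle the question. With the replicate block 9 genes were higher and 16 lower at an adjusted p under 0.05.

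Without WT 2 and WT 3, 53 genes were higher and 108 lower at an adjusted p under 0.05, and 405 were higher and 418 lower at the cutoff. Of the members, 1 was lower at an adjusted p under 0.05 and 4 at the cutoff. Of the list genes, 4 were lower at an adjusted p under 0.05, and 5 were higher and 14 lower at the cutoff. Ccl2, Ccl3, Ccl4 and Ccl7 then had log2 fold changes of -0.47, -0.21, -0.26 and -0.71. The cause was not tested.

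Leaving out each library in turn gave 8 to 28 higher and 5 to 56 lower genes at an adjusted p under 0.05, the lowest without WT 3 and Gsdmd-/- 2 and the highest without WT 4, and 155 to 318 higher and 297 to 704 lower genes at the cutoff. List genes lower at an adjusted p under 0.05 were 0 to 1, and members lower at the cutoff were 0 to 1, with Cxcl3 as that member without WT 2, WT 3 or Gsdmd-/- 3. The log2 fold changes ran from -0.10 to 0.47 for Ccl2, -0.056 to 0.24 for Ccl3, -0.054 to 0.28 for Ccl4, -0.26 to 0.48 for Ccl7, -0.13 to 0.18 for Ccl9, -0.69 to 0.35 for Cxcl2 and -0.43 to 0.026 for Cxcl16. Values were below 0 without WT 2 for Ccl2, Ccl3, Ccl4 and Ccl7, without WT 3 for Ccl2, Ccl3 and Ccl7, and without Gsdmd-/- 3 for Ccl3 and Ccl4. Ccl6 stayed between 0.21 and 0.29 and Cxcl3 between -1.54 and -0.31. Depth limits Cxcl1, Cxcl2 and Cxcl3, which had 0 to 275 reads in a library.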

Other observations

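Markers of other cells differed between WT libraries as well. Kit, a receptor of mast cells and progenitors, had 70.9, 11.4, 10.3 and 59.9 CPM in WT 1 to 4 and 45.9 to 66.9 CPM in Gsdmd-/- libraries. Kdr, an endothelial receptor, had 65.5, 23.6, 21.0 and 54.8 CPM in WT and 44.1 to 77.7 CPM in Gsdmd-/- libraries. Cdh5, the other tested endothelial marker, did not share that order, with 3.71, 5.37, 5.86 and 5.77 CPM in WT and 2.78 to 4.64 CPM in Gsdmd-/- libraries, and was lower at the study's cutoff with all libraries (log2 fold change -0.51, adjusted p = 0.40, edgeR) but not without WT 2 and WT 3 (-0.38). Ccl5, a CC chemokine that draws T cells, had 12.5, 0.549, 0.610 and 10.8 CPM in WT and 3.71 to 4.96 CPM in Gsdmd-/- libraries. Cdh5 and Ccl5 were chosen after their values were seen.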
